A study of Mus musculus with 18 samples.

Results

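Manba and 7 other genes for lysosomal glycosidases (Man2b1, Hexa, Glb1, Gaa, Fuca1, Neu1 and Gusb) are described here in mouse oocytes that lack the lipid kinase VPS34, encoded by Pik3c3, and in control oocytes. They are 8 of the 55291 genes counted. Manba was chosen by its low counts in VPS34-deficient oocytes at the germinal vesicle stage, and the other 7 were chosen as lysosomal glycosidases. Its values in those libraries are therefore given as a description with no test.

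The oocytes came from 5-week-old females in which both Pik3c3 alleles were floxed (Vps34f/f). Control females carried no other stated allele, and the conditional knockout (cKO, labelled ZcKO) also carried Zp3-Cre, a transgene whose promoter is active in growing oocytes, so that the cells around the oocyte keep the gene. Germinal vesicle (GV) oocytes, arrested in meiotic prophase, were taken 46 h after an injection of PMSG, a gonadotropin that drives follicle growth. MII oocytes, ovulated and arrested at metaphase of the second meiotic division, were taken 14 h after hCG, the ovulatory trigger. Each library was made by Smart-seq2 from 5 pooled oocytes with ERCC spike-in RNA, and each of the 4 groups had 3 libraries, given as biological replicates. Whether libraries share a female is not stated in the labels, so the p-values measure the spread between these libraries.

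Glycosidases of the lysosome take glycans apart from their free ends, and each removes 1 kind of sugar. Beta-mannosidase (Manba) splits the last mannose bond at the core of N-linked glycans after alpha-mannosidase (Man2b1) has trimmed the branches. Beta-hexosaminidase (Hexa encodes its alpha subunit), beta-galactosidase (Glb1), alpha-fucosidase (Fuca1), sialidase (Neu1) and beta-glucuronidase (Gusb) act on glycoproteins, glycolipids or glycosaminoglycans, and acid alpha-glucosidase (Gaa) breaks down glycogen delivered by autophagy. VPS34 makes the lipid PI3P, which endosomes and autophagosomes need to mature and to reach the lysosome. The enzymes carry mannose 6-phosphate tags that bring them to the lysosome, and the transcription factors TFEB, TFE3 and MITF bind E-box motifs with the core CACGTG at many lysosomal genes.

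The 250 bases before the annotated start are shown for Manba, the gene with the widest differences, and for Fuca1, Gaa and Glb1, whose share of the counts fell from GV to MII. The sequences are from RefSeq (GRCm38.p6), written 5′ to 3′ on the plus strand, which is the strand of all 4 genes, with CACGTG in capitals. They lie at chr3:135485361-135485610 (Manba), chr4:135920476-135920725 (Fuca1), chr11:119267713-119267962 (Gaa) and chr9:114400828-114401077 (Glb1).
Manba: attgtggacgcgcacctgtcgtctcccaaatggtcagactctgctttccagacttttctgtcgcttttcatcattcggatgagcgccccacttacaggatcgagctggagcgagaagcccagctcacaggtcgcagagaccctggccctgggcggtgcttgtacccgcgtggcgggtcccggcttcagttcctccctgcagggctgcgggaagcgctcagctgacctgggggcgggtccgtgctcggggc
Fuca1: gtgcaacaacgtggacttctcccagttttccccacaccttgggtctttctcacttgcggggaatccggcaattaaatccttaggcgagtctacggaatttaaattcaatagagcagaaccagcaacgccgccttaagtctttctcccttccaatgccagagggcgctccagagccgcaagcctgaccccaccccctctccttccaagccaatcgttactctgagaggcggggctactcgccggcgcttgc
Gaa: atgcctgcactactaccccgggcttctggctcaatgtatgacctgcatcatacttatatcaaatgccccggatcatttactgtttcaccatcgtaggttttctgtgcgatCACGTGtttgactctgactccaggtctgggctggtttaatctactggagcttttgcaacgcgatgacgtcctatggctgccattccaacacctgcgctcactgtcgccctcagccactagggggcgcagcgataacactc
Glb1: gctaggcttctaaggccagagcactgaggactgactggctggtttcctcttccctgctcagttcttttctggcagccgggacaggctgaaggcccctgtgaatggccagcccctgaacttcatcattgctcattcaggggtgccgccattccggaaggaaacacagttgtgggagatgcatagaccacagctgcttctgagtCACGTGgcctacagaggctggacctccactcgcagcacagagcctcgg
CACGTG, which reads the same on both strands, was searched from 250 bases before to 50 after the start. It was found once in Gaa, beginning 140 bases before the start, and once in Glb1, 48 bases before it. The windows of the other 6 genes did not hold these letters. Of all 32851 RefSeq promoters of this length, 7.15% held CACGTG, and 0.974% held the longer TCACGTGA that contains it, which none of the 8 genes did. Manba's window was 64.3% G and C, against a median of 52.7% over all promoters. All 8 genes matched the promoter table.

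Values are in CPM, the counts of a gene per 1000000 gene counts of the library. Libraries held 2609783 to 4696626 gene counts. All 14 oocyte markers, among them Zp3, Gdf9 and Bmp15, were detected in every GV library, and at least 13 in every MII library. Pik3c3, the deleted gene, had 35.5, 28.8 and 25.8 CPM in control GV oocytes and 1.56, 1.65 and 2.67 in cKO GV oocytes, a log2 difference of -3.97 (SE 0.32, edgeR adjusted p = 1.5e-04). At MII it had 10.6, 21.4 and 17.1 CPM in control and 5.36, 2.42 and 3.21 in cKO oocytes, a log2 difference of -2.19 (SE 0.39) with an edgeR adjusted p of 0.530 and a DESeq2 adjusted p of 0.0203. The groups did not overlap at either stage.

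Manba mRNA was nearly absent from cKO GV oocytes, was present in cKO MII oocytes, and differed widely among control MII libraries. The GV and MII libraries were made from different oocytes. In control GV oocytes it had 51.1, 41.4 and 48.8 CPM (151, 157 and 229 counts), in the 3 libraries in turn. In cKO GV oocytes it had 0.933, 0.276 and 1.0 CPM (3, 1 and 3 counts), with exact 95% binomial upper limits of 2.73, 1.54 and 2.92 CPM. Every control GV library thus lay far above every cKO GV library, whose counts are at the limit of detection. The means were 47.1 ± 5.03 and 0.736 ± 0.400 CPM (SD, n = 3), a 64.0-fold difference. Over the summed counts, 537 against 7, the ratio of the shares was 66.0, with a counting interval from 31.8 to 165 that covers counting error only. The fitted log2 difference was -6.02 (SE 0.36), and it was -5.60 without cKO GV library 2, the one with a single count.

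**Figure D1:**
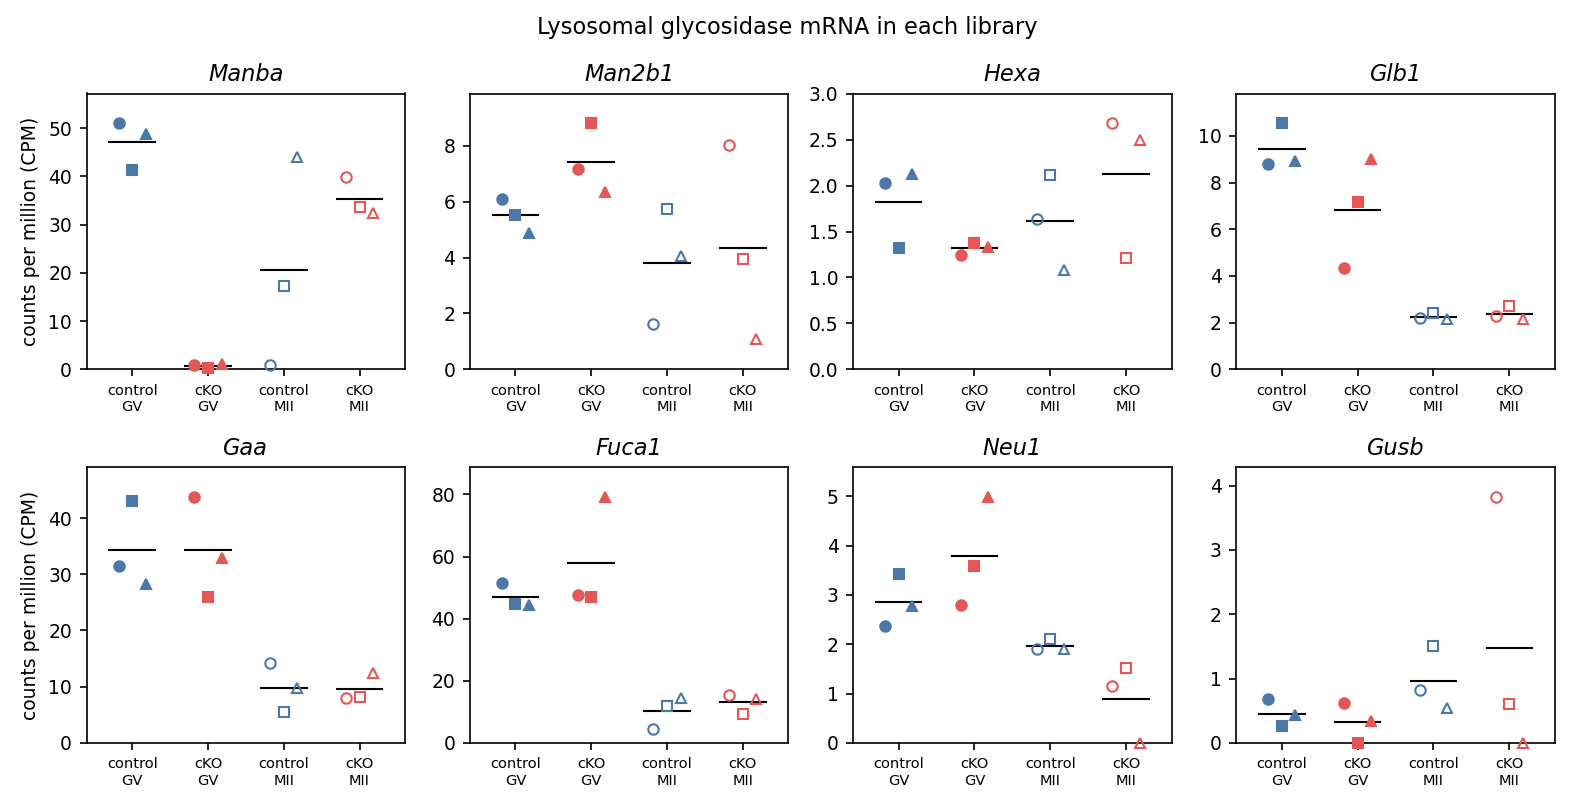
CPM of the 8 lysosomal glycosidase genes in each library, for control (blue) and cKO (red) oocytes at GV (filled) and MII (open). Circles, squares and triangles are libraries 1, 2 and 3 of a group, black lines are group means, and each panel has its own scale; Manba is near 0 in all cKO GV libraries and in control MII library 1.

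At MII the genotypes overlapped. Control MII libraries had 0.818, 17.2 and 44.0 CPM of Manba (3, 57 and 162 counts), and cKO MII libraries had 39.9, 33.6 and 32.4 CPM (104, 111 and 91 counts). Control MII library 1, with an upper limit of 2.39 CPM, was as low as the cKO GV libraries, whereas library 3 was as high as control GV oocytes. The highest control MII value was 53.8 times the lowest, against 1.23 times both in cKO MII and in control GV oocytes. The log2 difference of cKO from control at MII was 0.76 (SE 0.86, edgeR adjusted p = 0.778; two-sided exact permutation p = 0.4), so no genotype difference was resolved at this stage. It was 0.21 (SE 0.34) without control MII library 1 and 1.99 (SE 0.82) without library 3, with adjusted p of 0.931 and 0.805. With 3 libraries a group the exact test cannot go below 0.1.

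The spread of Manba among control MII libraries was among the widest of the genes compared, which were not matched to it in level. Its coefficient of variation was 105%, against a median of 19.3% over the 8249 genes with a mean of at least 5 CPM there, and 8 of those genes (0.0970%) varied more. In control GV oocytes it was 10.7% and in cKO MII oocytes 11.3%, below the medians of 16.5% and 16.8%. Control MII library 1 also had the lowest Pik3c3 of the control libraries, 10.6 CPM, above the 5.36 CPM of the highest cKO MII library. Its depth, 3668109 gene counts, lay within the range of the other libraries, and its ratio of gene to ERCC counts, 1.85, within the MII range of 1.51 to 2.42. Over all genes it differed more from control MII libraries 2 and 3 (chi-square per degree of freedom 21.3 and 14.1) than they did from each other (5.48). The cKO GV libraries differed by 15.1 to 43.8 on that measure. In control MII library 1, 16249 genes were detected, against 17045 and 16901 in libraries 2 and 3. Whether this bears on Manba was not tested.

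From GV to MII, the group means of Manba ran in opposite directions in the genotypes, though the GV and MII libraries of the control overlapped. The control means went from 47.1 to 20.7 CPM, a log2 change of -1.08 (SE 0.65), which was -0.52 without control MII library 1 and -2.29 without library 3. The cKO means went from 0.736 to 35.3 CPM, a 47.9-fold difference and a log2 change of 5.69 (SE 1.02). Over summed counts, 306 against 7, the ratio of shares was 49.4, with a counting interval from 23.7 to 124. These changes include the libraries that chose Manba and are a description.

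Many maternal mRNAs are degraded during maturation, which a share of the gene counts cannot show, so the same genes were also set against the spike-ins. This scale takes the amount of spike-in per oocyte as equal in all libraries, which was not tested. The gene counts were 4.35 to 13.1 times the ERCC counts in GV libraries and 1.51 to 2.42 times in MII libraries. Within GV they were 4.35 to 8.69 times in control and 6.29 to 13.1 times in cKO libraries. Per 10000 ERCC counts, control GV libraries had 2.22, 2.90 and 4.24 Manba counts and control MII libraries 0.0151, 0.398 and 1.06, a mean 6.34 times lower at MII. The cKO GV libraries had 0.122, 0.0205 and 0.0629, and the cKO MII libraries 0.808, 0.742 and 0.489, all of them above every cKO GV library, with a mean 9.92 times higher. On this scale, too, the direction was down in control and up in cKO oocytes, and the log2 change in cKO oocytes was 3.48. Pik3c3, by contrast, changed sign with the scale in cKO oocytes, with a log2 change from GV to MII of 1.02 by gene totals and -1.20 by ERCC totals.

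**Figure D2:**
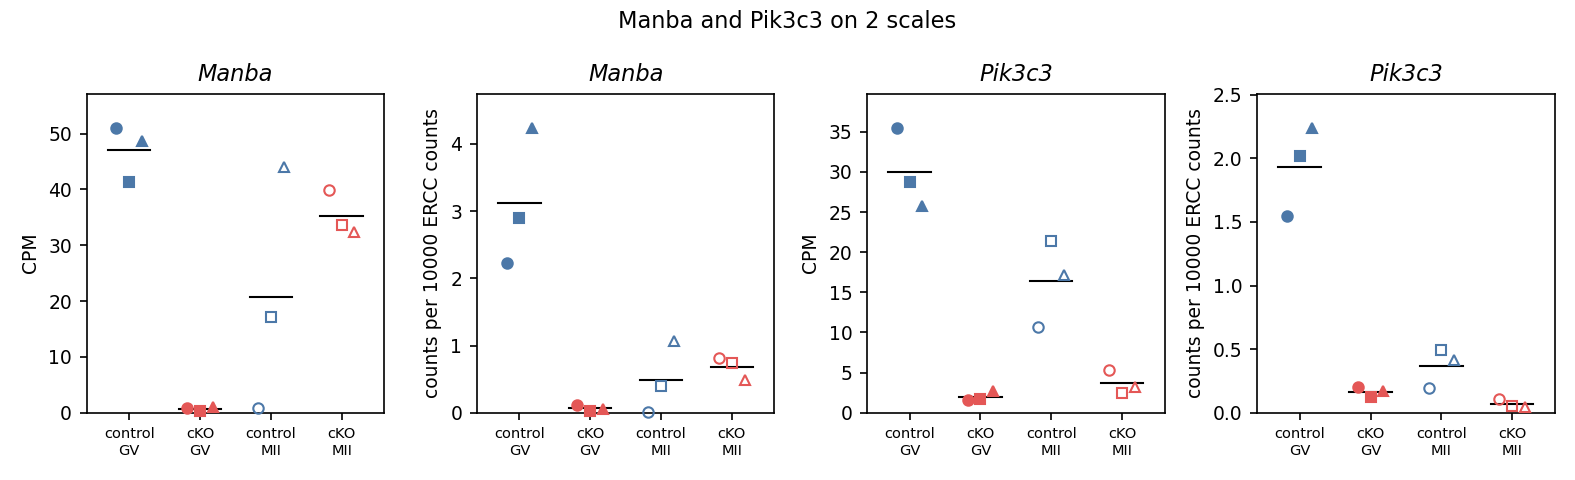
Manba and Pik3c3 in each library as CPM and as counts per 10000 ERCC spike-in counts; symbols and lines as in the plot of all 8 genes. On both scales Manba is higher in every cKO MII library than in every cKO GV library, while Pik3c3 per ERCC count is lower on average in cKO MII oocytes.

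None of the other 7 glycosidases was called by genotype at GV. Of these genes, 5 passed the filter on low counts, and 0 were called at an adjusted p under 0.05, where 9 of 10911 genes (0.0825%) were called by edgeR, 13 by DESeq2, and 240 had an unadjusted p under 0.05. Hexa and Gusb did not pass the filter. The median log2 difference of the 5 was 0.25, against 0.01 over all genes.

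Fuca1, the fucosidase, had 51.4, 44.9 and 44.5 CPM in control and 47.6, 46.8 and 79.3 CPM in cKO GV oocytes, and the groups overlapped (log2 difference 0.25, SE 0.22). Gaa had 31.5, 43.0 and 28.3 CPM in control and 43.9, 25.9 and 33.0 CPM in cKO GV oocytes, with means of 34.3 and 34.2. Its log2 difference was -0.05 (SE 0.27). Both mRNAs were thus well detected in the oocytes that had almost no Manba mRNA.

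Glb1, the galactosidase, had 8.79, 10.6 and 8.94 CPM in control and 4.35, 7.16 and 9.0 CPM in cKO GV oocytes (log2 difference -0.53, SE 0.33). Its cKO library 3 lay inside the control range, and the other two lay below it. Man2b1, the alpha-mannosidase that acts before beta-mannosidase, had 6.09, 5.54 and 4.90 CPM in control and 7.15, 8.82 and 6.33 CPM in cKO GV oocytes. These groups did not overlap, and the log2 difference was 0.40 (SE 0.32) with an edgeR adjusted p of 1.0. Neu1 had 7 to 13 counts in control and 9 to 15 in cKO GV libraries (log2 difference 0.33, SE 0.42).

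Hexa and Gusb were near the limit of detection throughout. Hexa had 4 to 10 counts in each of the 12 libraries, 1.83 ± 0.442 CPM in control GV, 1.32 ± 0.0679 in cKO GV, 1.61 ± 0.514 in control MII and 2.13 ± 0.801 in cKO MII oocytes (SD, n = 3). Gusb had 0 to 2 counts in GV and 0 to 10 in MII libraries. A count of 0, as in cKO GV library 2, allows up to 0.827 CPM there, taking 3 counts as the limit. Differences in either gene were not detectable at this depth.

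**Figure D3:**
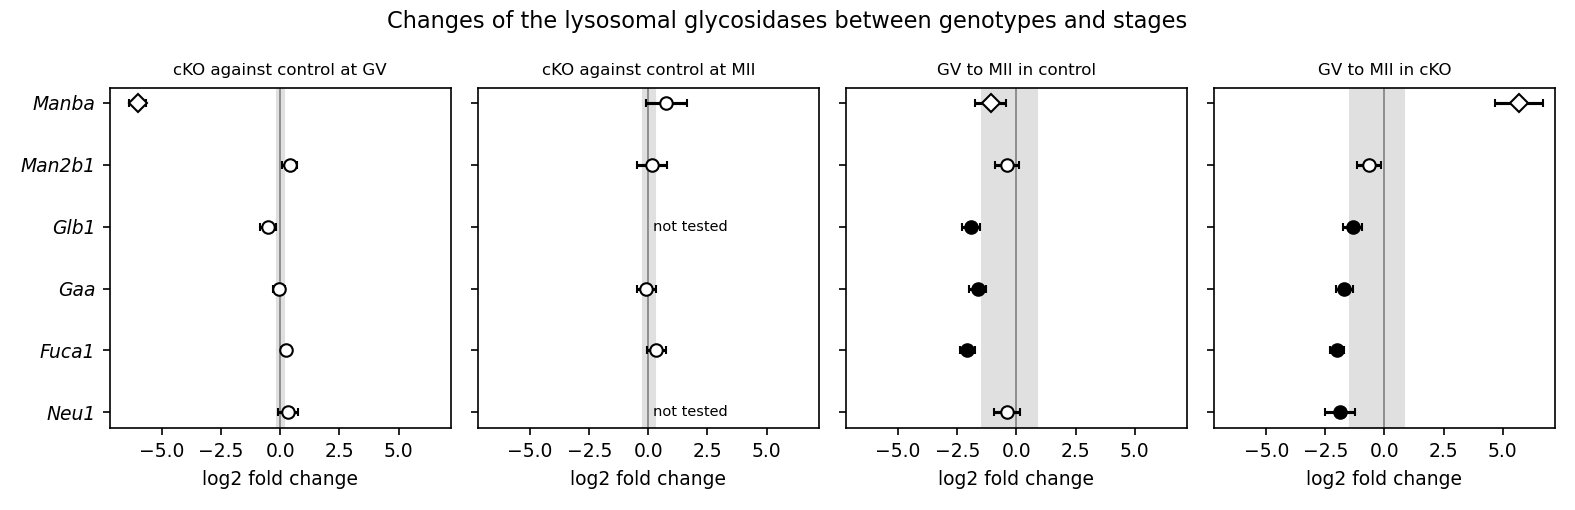
Fitted log2 fold changes (points) with standard errors (bars) of the 6 glycosidase genes that passed the filter, for cKO against control at GV and at MII and for MII against GV in each genotype. Filled circles had an edgeR adjusted p under 0.05, open circles did not, diamonds are Manba values with no test, and the grey band spans the middle 50% of all genes; Fuca1, Gaa and Glb1 are lower at MII in both genotypes.

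At MII, 4 of the 8 genes passed the filter (Manba, Man2b1, Gaa and Fuca1), and 0 were called. The edgeR test called 0 of 9677 genes at this stage (0%), with 872 at an unadjusted p under 0.05 and 4 called by DESeq2. The median log2 difference of the 4 was 0.24, against 0.02 over all genes. Fuca1 had 4.36, 11.8 and 14.4 CPM in control and 15.3, 9.38 and 14.3 CPM in cKO MII oocytes (log2 difference 0.33, SE 0.40). Gaa had 14.2, 5.43 and 9.78 CPM in control and 8.05, 8.17 and 12.5 CPM in cKO MII oocytes (log2 difference -0.09, SE 0.41). Control MII library 1, the one with 3 Manba counts, was the lowest control for Fuca1 and the highest for Gaa.

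Man2b1 ranged from 1.64 to 5.74 CPM in control and from 1.07 to 8.05 CPM in cKO MII oocytes (log2 difference 0.15, SE 0.64). Glb1 had 8 counts in each control MII library and 6, 9 and 6 in the cKO MII libraries, and Neu1 had 7 in each control MII library and 3, 5 and 0 in the cKO MII libraries. Neither passed the filter here. The Neu1 groups did not overlap (two-sided exact permutation p = 0.1).

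Between GV and MII, some of these glycosidases fell as a share of the counts. In control oocytes 3 of the 5 genes tested besides Manba (Fuca1, Gaa and Glb1) were called lower at MII and 0 higher, and in cKO oocytes 4 of 5 (the same 3 and Neu1) were called lower and 0 higher. Stage changed much of the transcriptome, so these counts stand against 63.9% of 11607 genes called in control (33.8% called lower) and 63.5% in cKO oocytes (34% called lower). The median log2 changes of the 5 were -1.64 in control and -1.70 in cKO oocytes, against 0.01 and -0.04 over all genes. Glb1 and Neu1 did not pass the filter at MII, so they entered the stage test through their GV counts, which favoured a fall. Their calls and their part in the medians are therefore a description.

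Fuca1 fell by 2.08 on the log2 scale in control (SE 0.32, edgeR adjusted p = 1.6e-05) and by 2.01 in cKO oocytes (SE 0.31, adjusted p = 2.2e-05). Gaa fell by 1.64 in control (SE 0.35, adjusted p = 4.7e-04) and by 1.70 in cKO oocytes (SE 0.36, adjusted p = 4.5e-04). Glb1 fell by 1.91 in control (SE 0.38, adjusted p = 2.6e-04) and by 1.35 in cKO oocytes (SE 0.40, adjusted p = 0.0068). All GV libraries lay above all MII libraries of the same genotype for these 3 genes, a separation that was not counted over all genes.

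Neu1 had a log2 change of -0.40 in control (SE 0.55, adjusted p = 0.535) and fell by 1.87 in cKO oocytes (SE 0.63, adjusted p = 0.0148). The call in cKO oocytes was lost without cKO GV library 3 (adjusted p = 0.0530) or without cKO MII library 3 (0.0538). Man2b1 had log2 changes of -0.41 (SE 0.50) and -0.67 (SE 0.50), and its adjusted p in cKO oocytes, 0.251, was 0.0352 without cKO MII library 1, its highest MII value. With ERCC totals as library sizes all 5 genes were called lower in both genotypes. On that scale 8141 of 11607 genes were called lower in control and 10209 of 11607 in cKO oocytes. The median log2 change over all genes was -1.72 in control and -2.37 in cKO oocytes. Relative to those medians Fuca1 changed by -2.01 and -1.95, Gaa by -1.72 and -1.80, and Man2b1 by -0.33 and -0.53.

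The difference between the genotypes in these stage changes was itself tested. None of the 5 genes was called (0 of 5) by edgeR or DESeq2, where edgeR called 1 of 11607 genes (0.00862%), DESeq2 called 4, and 608 had an unadjusted p under 0.05. The log2 difference of the changes was 0.07 for Fuca1 (SE 0.44), -0.05 for Gaa (SE 0.50), 0.57 for Glb1 (SE 0.56), -0.26 for Man2b1 (SE 0.71) and -1.47 for Neu1 (SE 0.85, unadjusted p = 0.0989, adjusted p = 0.875). For Manba, described with no test, it was 6.77 (SE 1.24).

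Compared per kilobase of annotated exon, the order of the 8 genes in control GV oocytes ran from Fuca1 at 14.3 ± 1.19 CPM per kb, through Gaa at 7.16 ± 1.62, Manba at 6.75 ± 0.722 and Glb1 at 3.13 ± 0.325, to Hexa at 0.915 ± 0.221, Neu1 at 0.765 ± 0.144, Man2b1 at 0.686 ± 0.0742 and Gusb at 0.10 ± 0.0457 (SD, n = 3). Of the neighbours in this order, Gaa and Manba differed by less than their spread, as did Hexa and Neu1, and Neu1 and Man2b1. The length joins all annotated exons of a gene, 8026 bases for Man2b1, 1996 for Hexa and 3733 for Neu1, and may exceed that of the mRNA present. By CPM alone Man2b1, at 5.51, lay above Neu1 at 2.86 and Hexa at 1.83, so its place depends on the length used. In cKO MII oocytes the first were Manba at 5.06 ± 0.572 and Fuca1 at 3.96 ± 0.967 CPM per kb, with Gaa at 2.00 ± 0.527. Manba made up 27.5% to 34.6% of the counts of the 8 genes in control GV libraries and 0.293% to 0.860% in cKO GV libraries. In MII oocytes it was 2.97%, 35.6% and 56.4% in the control libraries and 49.1% to 55.0% in the cKO libraries. Without Manba the summed level of the other 7 genes was 92.0 to 109 CPM in control GV and 93.7 to 134 CPM in cKO GV oocytes, and 26.7 to 33.9 CPM and 27.5 to 41.4 CPM in control and cKO MII oocytes.

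Markers of other cells were measured beside the oocyte genes. The summed level of 12 macrophage and blood markers was 50.7 to 81.0 CPM in control GV, 47.9 to 78 in cKO GV, 5.43 to 11.1 in control MII and 5.75 to 11.4 in cKO MII oocytes. C1qb held most of it at GV, and Adgre1, Lyz2 and Ptprc, which define these cells, had at most 5 counts in any library. The 18 cumulus and granulosa markers summed to 412 to 516 CPM in control GV and 344 to 593 in cKO GV oocytes, and to 1199 to 1527 and 906 to 1648 CPM in control and cKO MII oocytes. Foxl2 and Amh, which define granulosa cells, had at most 5 counts, and Pgr had 0 in all 12 libraries. Serpine2, which oocytes may also express, held most of the sum. Genes of the cumulus cells around ovulation were higher at MII. Tnfaip6 had 0 counts in every GV library and 47 to 507 in MII libraries, Ptx3 had 0 and 5 to 113, and Ptgs2 had 1 to 3 and 15 to 155. Cyp19a1, the aromatase, had 91 to 170 counts in GV and 128 to 309 in MII libraries. At GV, Inha, an inhibin subunit, had 110, 138 and 133 counts in control and 47, 44 and 46 in cKO libraries, and Hsd17b1, an enzyme of estradiol synthesis, had 24, 20 and 30 in control and 5, 4 and 3 in cKO libraries. Inha and Hsd17b1 were thus lower in the cKO GV libraries. Lhcgr, of the same list, went the other way, with 0, 2 and 3 counts in control and 8, 10 and 7 in cKO GV libraries. Amhr2 had 1, 14 and 10 counts in control and 2, 0 and 0 in cKO GV libraries, which overlapped. At MII, Cyp11a1 had 3, 0 and 5 counts in control and 69, 17 and 23 in cKO libraries. Cyp19a1 counts, not scaled for depth, ran the other way at MII, with 309, 227 and 275 in control and 199, 202 and 128 in cKO libraries. The summed level of the whole list overlapped between the genotypes. The part of these cells in the genotype and stage differences was not tested, and fewer cells of a type cannot be told apart from less RNA per cell in such libraries.

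Among 18 other glycosidases related to the lysosomal enzymes, 5 were tested at GV and 3 at MII, and 0 were called by genotype. At GV they ranged from -0.46 for Ctbs, which splits chitobiose in the N-glycan core, to 0.17 for Galc, the galactosylceramidase. At MII they ranged from -0.33 (Ctbs) to -0.16 (Galc). The medians were 0.10 and -0.31, against 0.01 and 0.02 over all genes. From GV to MII, 3 of 6 fell in control oocytes, where 33.8% of all genes were called lower. The log2 changes were -3.67 for Hyal2, a hyaluronidase (SE 0.40, edgeR adjusted p = 3.3e-07), -2.50 for Gba2, a glucosylceramidase that is not in the lysosome (SE 0.68, adjusted p = 0.0036), and -1.23 for Idua, the iduronidase (SE 0.25, adjusted p = 3.7e-04). The same 3 fell in cKO oocytes, with log2 changes of -4.17, -1.84 and -1.65, and Ctbs rose by 0.58 there (SE 0.23, adjusted p = 0.0354). Relative to ERCC totals the log2 change of Ctbs was -1.67. Hyal2 and Gba2 did not pass the filter at MII, so they too entered the stage test through their GV counts.

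Among cofactors, sulfatases and other helpers of glycan breakdown, 3 of 9 tested fell and 2 rose with stage in control oocytes, where 63.9% of all genes were called. The same 5 were called in the same directions in cKO oocytes (63.5% of all genes), where Psap, the saposin precursor, also rose by 1.06 (SE 0.43, adjusted p = 0.0374). The sulfatase Galns fell, with log2 changes of -4.40 in control and -2.91 in cKO oocytes, as did Hgsnat, an acetyltransferase of heparan sulfate breakdown, with changes of -1.80 and -1.75. Gm2a, the activator that presents GM2 ganglioside to hexosaminidase, rose from 2.31 ± 0.365 to 12.8 ± 4.95 CPM in control (log2 change 2.58, SE 0.54, edgeR adjusted p = 4.4e-04) and from 1.09 ± 1.17 to 22.2 ± 15.0 CPM in cKO oocytes (4.50, SE 0.62, 5.4e-06; SD, n = 3). Its change was also positive by ERCC totals, 0.93 and 2.35. Galns failed the filter at MII and Gm2a at GV, so each entered the stage test through the stage where it was higher. Arsb, a sulfatase, rose by 1.39 and 1.04 by gene totals and changed by -0.44 and -1.36 by ERCC totals, and Psap in cKO oocytes changed by -1.31 by ERCC totals. By genotype 0 of 8 were called at either stage, with values from -0.30 (Psap) to 0.49 (Ids, the iduronate sulfatase) at GV and from -0.46 (Sumf1, which activates sulfatases) to 0.77 (Ids) at MII.

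Mannosidases of the endoplasmic reticulum and Golgi, which trim N-glycans as proteins are made, changed with stage in a direction that depended on the scaling. Of 8 tested, 7 rose by gene totals in control oocytes and 0 fell (Man1a, Man1a2, Man1c1, Man2a1, Edem1, Edem2 and Edem3). In cKO oocytes 5 rose and 0 fell. Of all genes, 63.9% in control and 63.5% in cKO oocytes were called in either direction. Of the 7418 genes called in control oocytes 3928 were called lower, and of the 7371 called in cKO oocytes 3949 were. The share of all genes called higher is therefore smaller than the share called in either direction. By ERCC totals all 8 had negative log2 changes in both genotypes, with medians of -0.76 and -1.48. On that scale 11161 of 11607 genes had negative changes in control and 11327 of 11607 in cKO oocytes. The medians over all genes were lower than those of the 8, at -1.72 and -2.37. By gene totals the medians of the 8 were 1.0 and 0.85, with the largest changes for Man2a1, 1.41 (SE 0.36, edgeR adjusted p = 0.0024) in control and 1.47 (SE 0.36, 0.0018) in cKO oocytes. No interaction was called in this list either. Man1c1, a Golgi alpha-mannosidase, had 22.7 ± 0.661 CPM in control and 10.6 ± 5.22 CPM in cKO MII oocytes (SD, n = 3; log2 difference -1.15, SE 0.34, adjusted p = 0.530), the lowest value of the list by genotype. The highest was Man1a2, 0.31 at GV and 0.48 at MII, and the lowest at GV was Man1a at -0.12. None of the 8 was called by genotype at either stage.

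**Figure D4:**
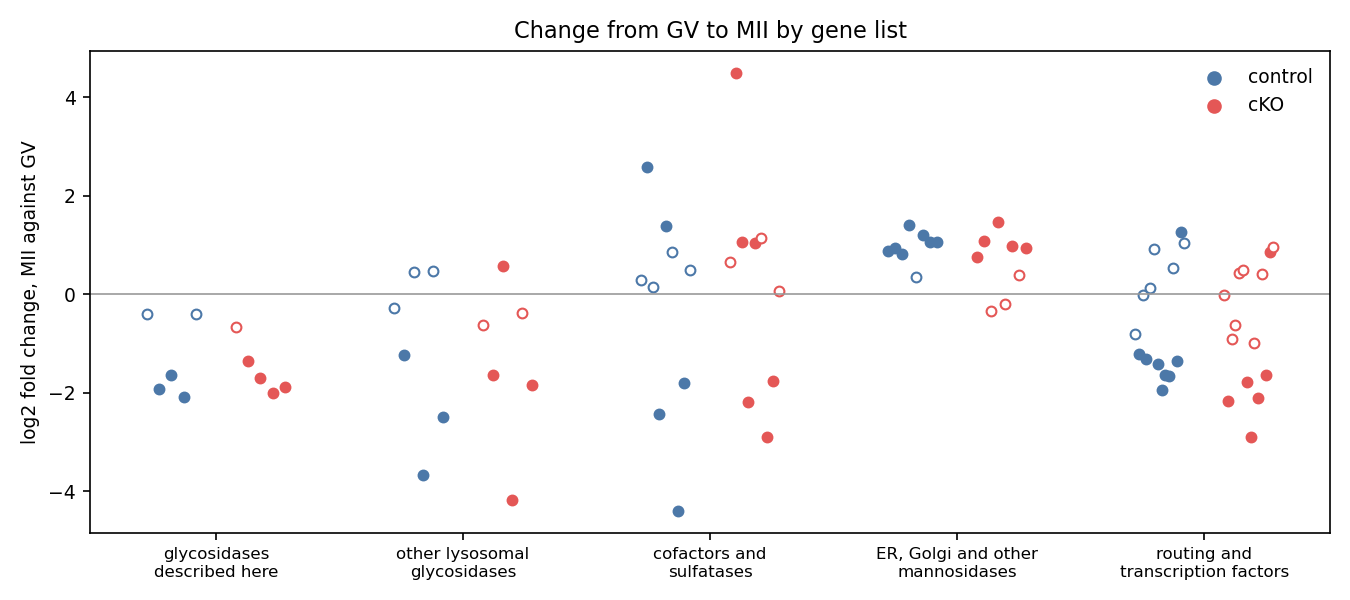
Log2 fold change from GV to MII by gene totals for the tested genes of each list in control (blue) and cKO (red) oocytes; filled points had an edgeR adjusted p under 0.05, and Manba is left out. The 5 glycosidases described here are all below 0, and 7 of the 8 mannosidases outside the lysosome are called above 0 in control oocytes. By ERCC totals all 8 of these mannosidases are below 0, as are 11161 of 11607 genes in control and 11327 in cKO oocytes.

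Of 15 genes for routing to the lysosome and for its transcription factors, 13 were tested at GV and 12 at MII, and 0 were called by genotype. Values ran from -0.39 (Nagpa, which uncovers the mannose 6-phosphate tag) to 0.36 (Ap1g1, an adaptor subunit) at GV and from -0.73 (Gnptg) to 0.76 (Gnptab), both subunits of the enzyme that begins the tag, at MII. With stage, 7 of 14 fell and 1 rose in control oocytes, where 63.9% of all genes were called, and 5 fell and 1 rose in cKO oocytes, where 63.5% were. For calls in either direction, neither share of the list lay above that of all genes. Of all genes, 33.8% were called lower in control and 34% in cKO oocytes. The median log2 changes of the list were -1.01 in control and -0.76 in cKO oocytes, against 0.01 and -0.04 over all genes. The falls include Gga1, which did not pass the filter at MII. Gnptg fell, with log2 changes of -1.22 in control and -2.16 in cKO oocytes, as did Sort1, a sorting receptor, with -1.41 and -1.77. M6pr, the small mannose 6-phosphate receptor, fell by 1.31 in control (SE 0.34, edgeR adjusted p = 0.0023) and had a change of -0.62 in cKO oocytes (SE 0.33, adjusted p = 0.108). The transcription factor Tfe3 went from 98.3 ± 14.4 to 34.7 ± 3.90 CPM in control and from 103 ± 34.7 to 30.1 ± 6.14 CPM in cKO oocytes (SD, n = 3), with log2 changes of -1.36 and -1.64, both called. Mitf rose by 1.26 and 0.85 by gene totals, and by ERCC totals its changes were -0.37 and -1.47. Tfeb had 0 counts in all 12 libraries, which, at 3 counts, allows between 0.639 and 1.15 CPM, depending on depth. In the cytosol, Ngly1, which removes N-glycans from misfolded proteins, rose by 0.61 in control oocytes (SE 0.24, adjusted p = 0.0328) by gene totals and changed by -1.13 by ERCC totals.

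Manba spans chr3:135485611-135571404 on the plus strand (GRCm38, GENCODE M21 annotation). Inside it lie Gm16100, a pseudogene on the same strand with 0 counts, and Oaz2-ps, an antisense pseudogene with 2 to 5 counts in each library. Of 180 genes in the table within 5 Mb, 34 were tested at GV, with a median log2 difference of -0.15. Of these 34, 1 was called, where 9 of 10911 genes (0.0825%) were called over all genes. An unadjusted p under 0.05 (edgeR) was found for 4 of the 34, against 240 of the 10911. Whether position plays a part was not tested. Neither flanking gene was called. Ube2d3, a ubiquitin-conjugating enzyme that ends before Manba begins, had a log2 difference of -0.16 (SE 0.22), and Nfkb1, the gene for the NF-kappaB p105 precursor on the other side, -0.24 (SE 0.34).

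The called neighbour was Aimp1, 2.83 Mb before Manba, which holds several aminoacyl-tRNA synthetases together. It had 5.75, 5.80 and 7.45 CPM in control and 28.3, 20.4 and 26.0 CPM in cKO GV oocytes (log2 difference 1.91, SE 0.27, edgeR adjusted p = 0.0232), and at MII the groups overlapped (-0.22, SE 0.37). Gstcd, 2.50 Mb before Manba and named for a glutathione S-transferase domain, and Slc9b1, a sodium/proton exchanger gene 0.138 Mb before it, had log2 differences of -0.91 (SE 0.23) and -0.52 (SE 0.19) at GV, with adjusted p of 0.909 and 1.0. The unadjusted p of Gstcd and Slc9b1 at GV was 0.0018 and 0.018 (edgeR). At MII 30 neighbours were tested and 0 were called by edgeR, where 0 of 9677 genes were called.

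**Figure D5:**
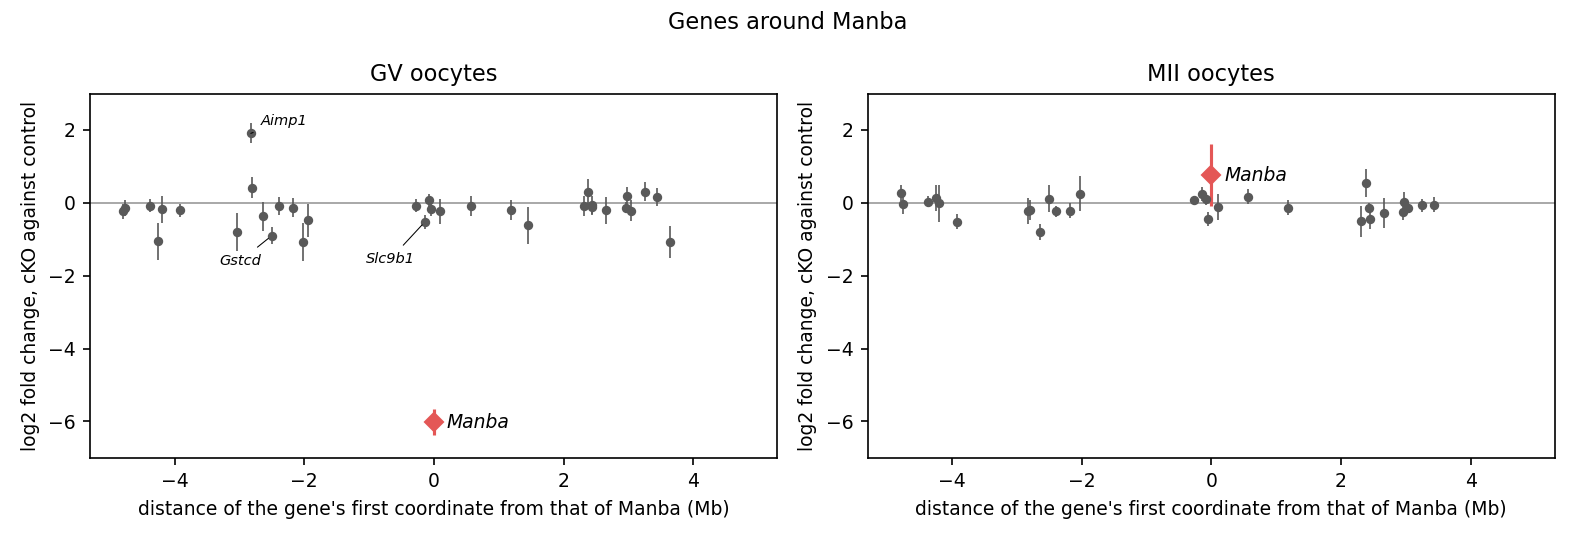
Log2 fold change of cKO against control (points) with standard errors (bars) for the tested genes within 5 Mb of Manba, at GV and at MII, against the distance along chromosome 3 from Manba's first annotated base; the red diamond is Manba. At GV Manba stands at -6.02 and Aimp1 at 1.91, and all other neighbours lie closer to 0 than Aimp1.

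The genes whose pattern was most like that of Manba were sought by Pearson's r of log2(CPM + 1) over the 12 libraries, among 9306 genes with a mean of at least 5 CPM. The libraries share genotype, stage and depth, so r is a description. The highest values were 0.88 for Spopl, an adaptor of cullin-3 ubiquitin ligases, 0.87 for Gstcd, 0.82 for Fgf7, a fibroblast growth factor, 0.79 for Slc9b1 and 0.76 for Gm14681. The lowest were -0.92 for Prr18, -0.88 for Slc25a44, a mitochondrial carrier, -0.81 for Ctnnbip1, an inhibitor of beta-catenin, -0.78 for Ppp1r35 and -0.77 for Aimp1. Gstcd, Slc9b1, Slc25a44 and Aimp1, 4 of these 10, lie on chromosome 3, which holds 4.80% of the 9306 genes. Slc25a44 lies 47.1 Mb before Manba.

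In control MII library 1 these genes are given as a description, since they were chosen by r over the same libraries. Spopl had 15.3 CPM there and 19.0 and 26.9 CPM in the other control MII libraries, all above the 3.11 to 4.68 CPM of cKO GV oocytes. Gstcd had 12.3 CPM there and 37.4 and 39.9 CPM in the other control MII libraries, against 14.3 to 17.0 CPM in cKO GV oocytes. Slc9b1 had 120 CPM there and 179 and 226 CPM in the other control MII libraries, against 90.6 to 114 CPM in cKO GV oocytes. Prr18 had 6.0 CPM there, 3.32 in control MII library 2 and 0 in library 3, all below the 9.33 to 28.0 CPM of cKO GV oocytes. Aimp1 had 9.0 CPM there and 14.5 and 8.15 in the others. In this library Gstcd thus lay below the cKO GV range, Slc9b1 lay between it and the other control MII libraries, and Spopl, Prr18 and Aimp1 did not reach theirs. The r values of other glycosidases with Manba were -0.08 for Glb1, -0.13 for Man2b1, -0.14 for Fuca1 and -0.32 for Gaa, and that of Pik3c3 was 0.59.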

How the data were processed

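Of the 18 samples of the series, 12 (GV and MII) were used and 6 2-cell samples were not analysed here. The deposited table holds raw read counts per gene, made by the authors with fastp, HISAT2 and featureCounts on mm10, per the submitters' processing notes; the sources used here do not give versions, the strand setting or the handling of multi-mapping reads, so reads of antisense neighbours cannot be told apart. Its column letters C and T were read as control and cKO; 6 further columns were not used. The 92 ERCC rows were left out of library sizes and tests. Members and gene lists were chosen with earlier results of these data known.

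Counts were tested with edgeR 4.0.16 (R 4.3.3; TMM, filterByExpr, robust quasi-likelihood F-test, Benjamini-Hochberg over all genes tested, threshold 0.05), on 6 libraries for genotype and on 12 for stage and its difference between genotypes. DESeq2 1.42.0, ERCC totals, no filter, 1 fit of 12 libraries, a replicate block and leave-one-out fits were alternatives. The fits were tested on simulated data. Exon lengths and positions come from GENCODE M21 (GRCm38). One gene of the list of cofactors and sulfatases is not reported here. Genes named are all members, the called and extreme genes of each list (at most 6 called per list and comparison), the flanking and called neighbours within 5 Mb, and the 5 highest and 5 lowest r; Slc9b1 and Gstcd values at GV were chosen after they were seen. No duplicate library was found (chi-square per degree of freedom of at least 4.87 between replicates).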

Additional observations from a re-analysis of the deposited data

How the results depend on the processing

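Manba was left out of the counts of called glycosidases here, except at MII. These counts at GV, at MII and in the interaction were 0 under all alternatives run. With ERCC totals 5 were called lower from GV to MII in control oocytes instead of 3, where 8141 of 11607 genes were called lower. Leaving out single libraries gave 3 in control in every case and 3 to 5 in cKO oocytes. Replicate numbers did not pair the libraries (same-number correlations -0.23, 0.0059 and 0.21 at GV and -0.17, -0.064 and 0.014 at MII). With the replicate block 2 (Fuca1 and Gaa) were called in cKO oocytes instead of 4, with adjusted p of 0.225 for Glb1 and 0.241 for Neu1, and the cause was not tested. Signs changed only where values were near 0 or uncertain, or where ERCC totals moved the whole scale. With ERCC totals Gaa at GV was 0.50, the interaction of Fuca1 -0.59 and the cKO stage change of Pik3c3 -1.20. With the block the stage change of Neu1 in control was 0.14 and the interaction of Gaa 0.035. Without 1 library each, Gaa ranged from -0.32 to 0.19 at GV and from -0.40 to 0.35 at MII, Man2b1 at MII from -0.57 to 0.59, and the interactions of Man2b1 from -0.97 to 0.17, of Gaa from -0.37 to 0.38 and of Fuca1 from -0.26 to 0.40. The stage change of Manba in cKO oocytes was 3.48 with ERCC totals, 4.94 with the block and 5.27 without cKO GV library 2. Depth limits Hexa, Gusb, Neu1 and Glb1 at MII, with 10 counts or fewer in each library, and all Manba values in cKO GV oocytes.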
